A study of Mus musculus with 45 samples.

Results

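The genes described here encode splicing and RNA processing factors: 54 genes were listed by name, and 53 of them had a transcript of at least 20 kb, out of 11818 genes with such a transcript in all. For each gene the longest transcript was used, and Sf3a3, a subunit of the U2 snRNP, was the 1 gene left out because its longest transcript covers 17.7 kb. The rule used gene names and transcript length, not the measured values, but the names were listed with earlier results of these data known. The data come from 4sU-DRB-seq in mouse embryonic stem cells (ESCs), in which transcription elongation was halted with DRB for 4 h, DRB was washed out, and nascent RNA was labelled with 4-thiouridine before each harvest, purified and sequenced. The study compared 3 genotypes: WT/WT cells with the unmodified Polr2a gene, WT/slow cells with the slow mutation on one allele and slow/slow cells with it on both alleles. The slow mutation is an arginine-to-histidine substitution in the largest subunit of RNA polymerase II (RNAPII), and it was introduced into the endogenous gene by successive rounds of homologous recombination, so each mutant genotype is a targeted cell line. All cells were grown in 2i medium and sampled 5, 15 and 30 min after DRB removal, with 3 biological replicates in each of 9 groups. Samples at 0 min and samples that received no DRB are not analysed here. Wave-front positions do not hold expression levels, so the ESC label could not be checked against marker genes.

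DRB inhibits the kinase that releases paused RNAPII into the gene body, so its removal starts a synchronous wave of transcription from each start site. The distance between the start site and the end of this wave is the wave-front boundary, and the boundaries of a gene at several times show how far RNAPII has travelled. Introns are recognised while the RNA is still being made, so the time at which a splice site or a competing site is transcribed is one of the things that splicing factors and RNAPII speed have in common. Many genes for splicing factors are themselves long, and their own transcripts are regulated by alternative splicing.

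The boundaries lie on a grid of 0.1 kb and reach 59.3 kb at most, so a wave that has travelled farther cannot be seen. A value of exactly 2.5 kb made up 53.3% of all boundaries in the tables, and it was therefore counted apart from measured fronts. Boundaries described as measured or above 2.5 kb in counts and medians are all those other than 2.5 kb. They can include smaller values, since boundaries in the tables go down to 0.2 kb. Fold changes were not used, and differences are given in kb. Tests were made with limma on genes with at least 2 boundaries other than 2.5 kb in each group, with Benjamini-Hochberg adjustment over all genes tested. "Called" means an adjusted p under 0.05.

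Donor splice sites passed by the mean front at 5 min were read for 6 genes, and the 3 in which the last exon completed differed between WT/WT and slow/slow cells are shown, because they place the distances in kb on the exons. In the other 3 genes the last donor site passed was the same in both genotypes, that of exon 1 in Dicer1, of exon 6 in Hnrnpll and of exon 3 in Upf2. The sites are on GRCm38, each is 30 bases long, the last 10 bases of the exon come first and capitals mark the GT at the start of the intron. Rbm5, a regulator of alternative splicing, lies on the minus strand of chromosome 9, and its mean front at 5 min was at 14.5 ± 8.1 kb in WT/WT cells and at 9.83 ± 0.92 kb in slow/slow cells (SD, n = 3 each). The last donor site passed was that of exon 7 in WT/WT cells (chr9:107756889-107756918) and that of exon 4 in slow/slow cells (chr9:107765475-107765504). Prpf4b, a kinase of the spliceosome, lies on the plus strand of chromosome 13, with mean fronts of 15.9 ± 6.0 kb in WT/WT cells and 9.07 ± 2.0 kb in slow/slow cells. Exon 6 was the last one completed in WT/WT cells (chr13:34890696-34890725) and exon 2 in slow/slow cells (chr13:34884418-34884447). Drosha, which cuts primary microRNA transcripts, ran the other way on the plus strand of chromosome 15, with 17.2 ± 3.5 kb in WT/WT cells and 20.9 ± 1.0 kb in slow/slow cells. There the last exon completed was exon 5 in WT/WT cells (chr15:12837366-12837395) and exon 7 in slow/slow cells (chr15:12842522-12842551).
Rbm5 exon 7: ttgtaacaagGTaagcatatattcttccca
Rbm5 exon 4: cgagagcgatGTaagagaagcaacaaacag
Prpf4b exon 6: cagaataatgGTgagttagagtgtctaatg
Prpf4b exon 2: cttctccgagGTaacctgttcacgaaacgc
Drosha exon 5: gatctggaagGTaagcgattgtagcgttac
Drosha exon 7: ggatcaggtgGTacgtctgaagcagaggct
None of these 3 genes was called for a difference between slow/slow and WT/WT cells at 5 min, and in all 3 the values of the 2 genotypes overlapped.

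The genes were long and started in GC-rich sequence. The median length of their transcripts was 62.3 kb, against 47 kb for all 11818 genes, from 20.1 kb for Tra2a to 856 kb for Celf2. RefSeq promoters (GRCm38, a window around the start site) were matched for 40 of the 53 genes and for 6646 of all genes. Their median GC content was 64.2%, against 60%, and they held a median of 27.5 CpG dinucleotides, against 19.0. The letters TATAAA, searched on both strands, occurred in 0 of the 40 promoters and in 8.62% of all promoters matched. These are descriptions of the list and were not tested.

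At 5 min, replicates differed in how far the wave had travelled, most of all in WT/WT cells. The median boundary of the RNA processing genes above 2.5 kb was 8.5, 20.4 and 12.7 kb in WT/WT replicates 1, 2 and 3, and 10.8, 18 and 15.2 kb in those of WT/slow cells. In slow/slow cells it was 11.2, 12.4 and 10.1 kb. WT/WT replicate 2 and WT/slow replicate 2 thus stood high, and WT/WT replicate 1 stood low, with 16 of 53 genes at 2.5 kb. The same order was seen over all genes, with medians of 10, 17.2 and 11.3 kb in the WT/WT replicates. For the genes with 3 boundaries above 2.5 kb, the median SD between replicates at 5 min was 7.07 kb in WT/WT cells (35 genes), 4.21 kb in WT/slow cells (39 genes) and 1.99 kb in slow/slow cells (49 genes), and over all genes it was 5.17, 4.20 and 2.61 kb. Comparisons with WT/WT cells are therefore also given without WT/WT replicate 2.

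**Figure D1:**
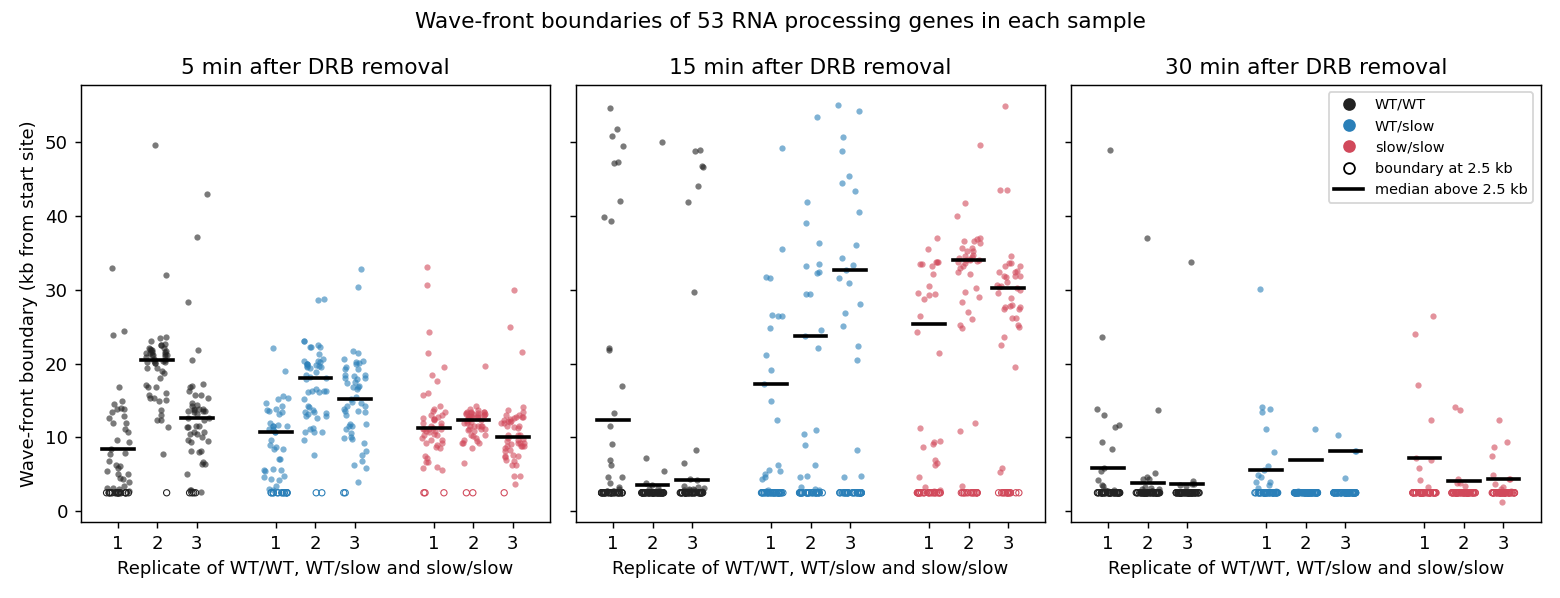
Wave-front boundaries (kb from the start site) of 53 RNA processing genes in each replicate of the 3 genotypes at 5, 15 and 30 min, with open circles for boundaries at 2.5 kb and a black line at the median of the others. At 5 min the slow/slow replicates had medians of 10.1 to 12.4 kb and the WT/WT replicates 8.5 to 20.4 kb, and at 15 min most slow/slow fronts lay near 30 kb while most WT/WT boundaries were at 2.5 kb.

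At 5 min, almost all RNA processing genes had a measured front. Boundaries at 2.5 kb made up 21 of 159 in WT/WT cells (13.2% ± 14.98, SD over 3 replicates), 18 of 159 in WT/slow cells (11.3% ± 13.1) and 6 of 159 in slow/slow cells (3.77% ± 1.89). Over all genes these shares were 19.6%, 21.1% and 18.7%. The mean of the replicate medians was 13.9 ± 6.1 kb in WT/WT cells, 14.7 ± 3.6 kb in WT/slow cells and 11.2 ± 1.2 kb in slow/slow cells (n = 3 each). These ranges overlapped. Mean fronts lay in introns for 51 of 51 genes in WT/WT cells, 50 of 51 in WT/slow cells and 52 of 52 in slow/slow cells. The front was still inside intron 1 in 16, 17 and 23 genes of these genotypes, and it had crossed a median of 27.03%, 25.6% and 18.5% of the transcript.

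The first comparison asked how far RNAPII had travelled in slow/slow cells relative to WT/WT cells after 5 min. Of 51 RNA processing genes tested, 39 had a shorter mean boundary in slow/slow cells and 12 a longer one, with a median difference of -2.93 kb, and 0 were called by limma (all genes: 0.0852% called, median difference -2.77 kb). Unadjusted p-values were under 0.05 for 4 of them, Celf1, Rbm6, Ptbp2 and Dicer1, and all 4 boundaries were shorter in slow/slow cells. The direction of the median depended on WT/WT replicate 2. Without it, 35 genes could be tested, 23 of them had a longer boundary in slow/slow cells, the median difference was 2.07 kb and 0 were called, while the median over all genes was -0.68 kb.

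Celf1, a CUG-binding regulator of splicing and mRNA decay, had the smallest unadjusted p of these genes at 5 min. Its boundary was at 2.5, 22.1 and 21.9 kb in WT/WT cells, at 2.5, 19.8 and 20.7 kb in WT/slow cells and at 11.2, 11.5 and 9.9 kb in slow/slow cells. Replicate 1 of WT/WT and of WT/slow cells thus had no front past 2.5 kb, and the other replicates were about level with each other and above all slow/slow values. Against WT/WT cells the slow/slow difference was -11.1 ± 2.6 kb (SE; adjusted p = 0.308 by limma). Rbm6, a relative of Rbm5 in splicing control, had 2.5, 19 and 28.3 kb in WT/WT cells and 12.5, 12.1 and 8.3 kb in slow/slow cells, a difference of -12.7 ± 3.6 kb (adjusted p = 0.353 by limma). Neither gene passed the test over all genes.

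For 34 genes with 3 measured fronts in both genotypes, the groups could be compared value by value. All 3 slow/slow values were below all 3 WT/WT values in 3 of these, against 16.3% of all genes with such values, and all 3 were above in 0, against 1.42%. Without WT/WT replicate 2 the slow/slow values were below in the same 3 genes (all genes: 17.4%) and above in 5 of 34, Cpsf2, Cstf3, Drosha, Qk and Rbm33 (all genes: 10%). Ptbp2, a repressor of neuronal exons, was at 33, 22.5 and 13.9 kb in WT/WT cells, at 15.4, 23.1 and 18.4 kb in WT/slow cells and at 12.3, 12.5 and 9.8 kb in slow/slow cells. Pan3, a subunit of a deadenylase that shortens poly(A) tails, was at 13.9, 21.5 and 14.7 kb in WT/WT cells, at 8.4, 18 and 18 kb in WT/slow cells and at 10.9, 10.3 and 9.1 kb in slow/slow cells. In both genes the slow/slow values were close together and the other genotypes spread widely. Snrnp200, the helicase that unwinds the U4/U6 duplex in the spliceosome, was at 13.4, 16.8 and 12.7 kb in WT/WT cells, at 15.6, 13.7 and 20.3 kb in WT/slow cells and at 11.9, 11.9 and 11.6 kb in slow/slow cells. Its difference of -2.50 kb was the smallest of the 3.

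WT/slow cells were not separated from WT/WT cells at 5 min. Of 51 genes, 23 had a shorter and 28 a longer boundary in WT/slow cells, with a median difference of 0.35 kb, and 0 were called (all genes: 0.0422%), with 1 at an unadjusted p under 0.05, Rbm6. The median was negative, between -1.35 and -0.27 kb, without WT/WT replicate 1 or 3 or WT/slow replicate 2 or 3, and it was 3.82 kb without WT/WT replicate 2 and 2.05 kb without WT/slow replicate 1. Against WT/slow cells, slow/slow cells had shorter boundaries in 37 of 51 genes, with a median difference of -2.87 kb and 0 called (all genes: 0.0284%, median -2.25 kb), and with 3 at an unadjusted p under 0.05. All 3 slow/slow values were below all 3 WT/slow values in 9 of 37 genes, against 17.6% of all genes. These were Khdrbs3, Prpf4b, Ptbp2, Rbm33, Scaf8, Sf3b1, Snrnp200, Srpk1 and Xrn1. The median stayed negative when any 1 replicate of either genotype was left out, between -4.97 and -1.90 kb.

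**Figure D2:**
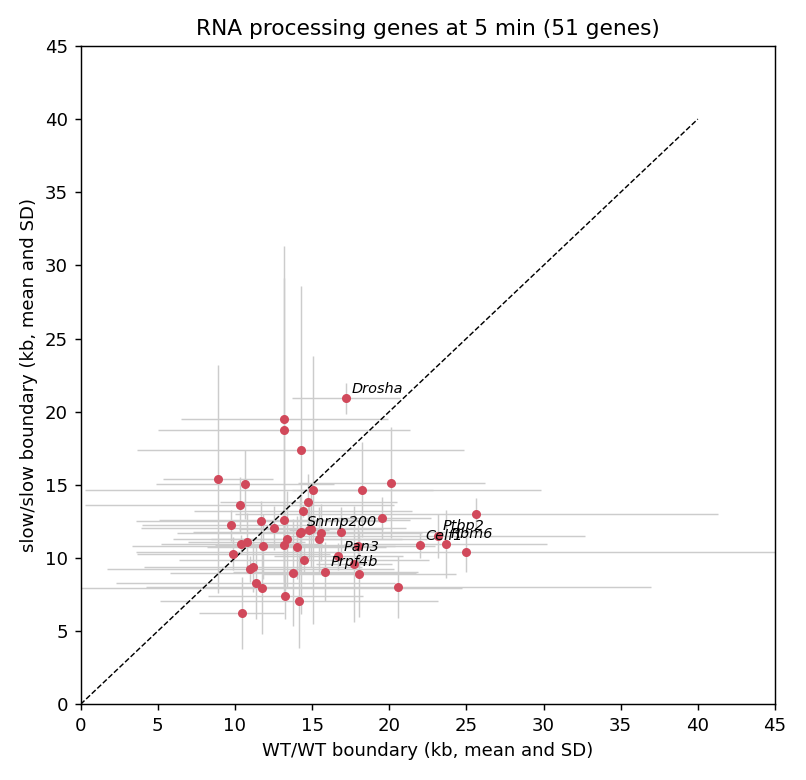
Mean wave-front boundary at 5 min (kb, with SD as grey bars) in WT/WT cells on the x axis and in slow/slow cells on the y axis, for 51 RNA processing genes with at least 2 boundaries above 2.5 kb in both genotypes. Of these, 39 lie below the dashed line of equality, and the horizontal bars are longer than the vertical ones in most genes.

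At 15 min the genotypes differed first in how many genes had a front at all. Boundaries at 2.5 kb made up 104 of 159 in WT/WT cells (65.4% ± 16.3), 89 of 156 in WT/slow cells (57.02% ± 2.9) and 52 of 158 in slow/slow cells (32.9% ± 9.1). The 3 WT/WT replicates had 50.9%, 83% and 62.3% of the genes at 2.5 kb, and the 3 slow/slow replicates had 43.4%, 28.3% and 26.9%, so the genotypes did not overlap. Without WT/WT replicate 2 the WT/WT mean was 56.6%. Over all genes the shares were 48.1%, 43.5% and 35%. Many boundaries other than 2.5 kb at 15 min were also short, shorter than those of the same gene at 5 min. Boundaries of at least 10 kb, a limit set after the values were seen, numbered 22 in WT/WT cells (21 of them in replicates 1 and 3), 47 in WT/slow cells and 91 in slow/slow cells.

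Counted gene by gene, 37 of 53 RNA processing genes (69.8%) had more replicates with a boundary of at least 10 kb in slow/slow cells than in WT/WT cells, against 42.6% of all genes, 15 had as many and 1, Dicer1, had fewer. In 8 genes (15.1%) all 3 slow/slow replicates and 0 of 3 WT/WT replicates had such a front, against 6.09% of all genes. These were Celf1, Cstf3, Fubp3, Ptbp3, Qk, Rbm26, Smg6 and Xrn2. Without WT/WT replicate 2 the share of replicates with such a front was larger in slow/slow cells in 33 of 53 genes (all genes: 38.9%), and the same 8 genes had 3 against 0 of 2 (all genes: 6.87%). Length moved with this result: boundaries of at least 10 kb in the 27 genes of at least 60 kb came to 25.9% ± 22.2 in WT/WT cells and 77.8% ± 12.8 in slow/slow cells, and among all genes of that length it was 44.97% ± 10.7 and 64.1% ± 0.2. Without WT/WT replicate 2 the WT/WT means were 37.04% and 51.1%. Among the 26 shorter genes it was 1.28% ± 2.22 and 36.6% ± 28.3, and among all genes under 60 kb it was 15.8% ± 4.4 and 33.8% ± 6.0. A WT/WT wave that has left a gene shorter than its reach cannot be told apart here from a wave that was not found.

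The fronts that were found lay in different places. In genes of at least 60 kb, the 63 slow/slow boundaries of at least 10 kb had a median of 33.5 kb, and 54 of them lay between 25 and 40 kb. The 21 WT/WT boundaries had a median of 46.7 kb, and 14 of them lay above 40 kb. Of these 21, 20 remained without WT/WT replicate 2. The boundaries were pooled over genes and replicates, and they came partly from different genes in each genotype. In WT/WT cells 13 genes of this length had no boundary of at least 10 kb, against 2 genes in slow/slow cells. Such counts by position are not given for all genes, and the difference between the pooled medians was not tested. The 30 WT/slow boundaries were spread from 10.5 to 55.1 kb, with a median of 33.05 kb. In genes under 60 kb, 23 of 28 slow/slow boundaries also lay between 25 and 40 kb, and WT/WT cells had 1 boundary of at least 10 kb there, at 13.3 kb. Over genes with 3 boundaries above 2.5 kb, short ones included, the median SD between replicates was 6.03 kb in slow/slow cells (23 genes). It was 11.6 kb in WT/slow cells (11 genes) and 1.18 kb in WT/WT cells (5 genes). Over all genes these values were 4.33, 6.68 and 6.33 kb.

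**Figure D3:**
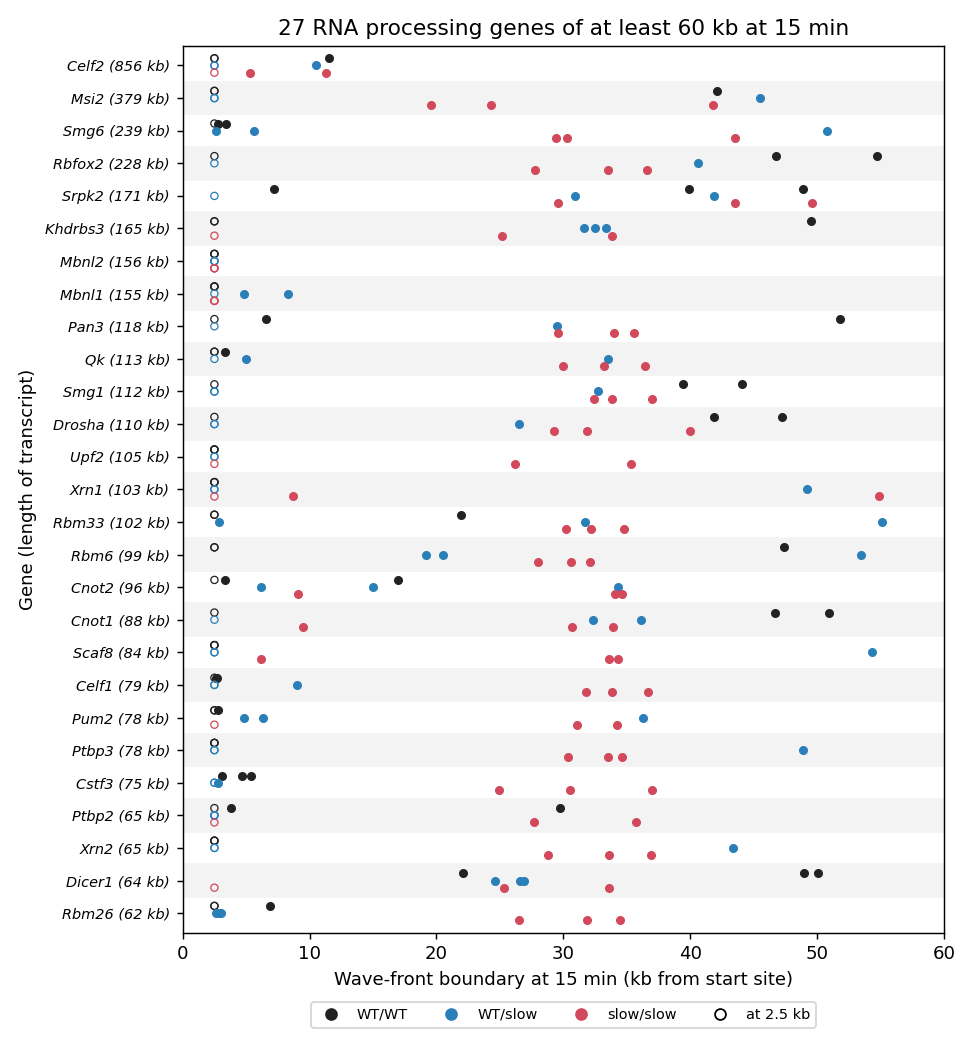
Every wave-front boundary at 15 min (kb from the start site) in the 27 RNA processing genes of at least 60 kb, ordered by transcript length, with 1 point per replicate and open circles at 2.5 kb. Slow/slow points of at least 10 kb crowd between 25 and 40 kb (54 of 63), whereas WT/WT points are mostly at 2.5 kb or above 40 kb.

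limma could test 15 RNA processing genes between slow/slow and WT/WT cells at 15 min, and 4 of them were called, all with a longer boundary in slow/slow cells (all genes: 3.3% called). The 4 genes were Celf1, Cstf3, Elavl1 and Hnrnpr. Their differences were 31.4 ± 3.4 kb for Celf1 (SE; adjusted p = 0.0243 by limma), 26.4 ± 3.9 kb for Cstf3 (adjusted p = 0.0326 by limma), 29.9 ± 3.9 kb for Elavl1 (adjusted p = 0.0353 by limma) and 27.6 ± 2.8 kb for Hnrnpr (adjusted p = 0.0136 by limma). In each of them the WT/WT values that entered the test were between 2.6 and 5.4 kb. The 4 calls thus set slow/slow fronts near 30 kb against WT/WT boundaries shorter than most of those at 5 min.

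Celf1 at 15 min was at 2.5, 2.6 and 2.7 kb in WT/WT cells, at 2.5, 9.0 and 2.5 kb in WT/slow cells and at 33.8, 36.7 and 31.8 kb in slow/slow cells. Intron 1 of Celf1 covers 57.9 kb, and the slow/slow fronts were inside it at both times. The transcript used had 6 boundaries other than 2.5 kb at 15 min, with a median of 20.4 kb. Celf1 transcripts that start 0.02 to 0.15 kb away had 4 or 5, with medians of 33.6 to 34.95 kb. The genotypes were not compared in those transcripts. Cstf3, a subunit of the factor that stimulates cleavage at polyadenylation sites, was at 4.7, 5.4 and 3.1 kb in WT/WT cells, at 2.8, 2.5 and 2.5 kb in WT/slow cells and at 37, 24.9 and 30.5 kb in slow/slow cells. At 5 min Cstf3 had been at 2.6, 21.6 and 6.7 kb in WT/WT cells, at 2.5, 12.6 and 10.6 kb in WT/slow cells and at 15.8, 12.8 and 12.2 kb in slow/slow cells. Cstf3 was the 1 gene of 2 with 3 measured fronts in both genotypes whose values did not overlap, with slow/slow higher (9.95% of all genes were higher and 16.4% lower in this way). Without WT/WT replicate 2, 9 genes could be compared so, and slow/slow values were higher in 2, Cstf3 and Smg6 (all genes: 14.5%), and lower in 4, Cnot1, Drosha, Rbfox2 and Smg1 (all genes: 27.3%).

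Elavl1, which binds AU-rich elements and stabilises mRNAs, was at 3.8, 2.5 and 4.2 kb in WT/WT cells at 15 min, at 2.5, 33.2 and 28.1 kb in WT/slow cells and at 2.5, 35.3 and 32.5 kb in slow/slow cells. Its boundaries at 5 min had been 7.9, 23.1 and 11.6 kb in WT/WT cells, 13.2, 20.2 and 19.6 kb in WT/slow cells and 8.7, 13.3 and 13.1 kb in slow/slow cells. Both mutant genotypes thus had 2 fronts near 30 kb and 1 replicate at 2.5 kb, and WT/WT cells had none. Hnrnpr, an abundant nuclear RNA-binding protein, was at 2.8, 2.7 and 2.9 kb in WT/WT cells, at 4.7 kb in all 3 WT/slow replicates and at 2.5, 28.3 and 32.6 kb in slow/slow cells at 15 min. At 5 min it was at 2.5, 11.4 and 6.4 kb, at 3.4, 10.7 and 13.6 kb and at 24.3, 9.9 and 12 kb in these genotypes, and the slow/slow values did not lie apart.

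These calls were sensitive to single libraries, to the short boundaries and to a replicate block. With the replicate number as a block, 0 genes of the list were called, and calls over all genes went from 133 to 1. Leaving out WT/WT replicate 1 left 2 of 6 genes tested called, WT/WT replicate 2 left 1 of 12, WT/WT replicate 3 left 1 of 5, slow/slow replicate 1 left 1 of 15, and slow/slow replicate 2 or 3 left 0 of 11 each. The median difference over the 15 genes was 14.9 kb, and over all genes it was -0.10 kb. With boundaries under 10 kb at 15 min treated as no value, a setting chosen after seeing the data, the direction reversed: 6 genes could be tested, all 6 had a shorter boundary in slow/slow cells, the median difference was -10.9 kb (all genes: -6.30 kb) and 0 were called, with 2 at an unadjusted p under 0.05.

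Those 6 genes, Cnot1, Dicer1, Drosha, Rbfox2, Smg1 and Srpk2, were the ones in which a distant front was found repeatedly in both genotypes. Cnot1, the scaffold of the CCR4-NOT deadenylase, was at 50.9, 2.5 and 46.7 kb in WT/WT cells, at 2.5, 32.3 and 36.1 kb in WT/slow cells and at 9.5, 33.9 and 30.7 kb in slow/slow cells. Rbfox2, which binds beside alternative exons, was at 54.7, 2.5 and 46.8 kb in WT/WT cells, at 33.5, 36.6 and 27.8 kb in slow/slow cells, and in WT/slow cells at 2.5 and 40.6 kb with no boundary in replicate 2. Smg1, the kinase that phosphorylates Upf1 in nonsense-mediated decay, was at 39.4, 2.5 and 44.1 kb in WT/WT cells, at 2.5, 2.5 and 32.7 kb in WT/slow cells and at 33.8, 37 and 32.4 kb in slow/slow cells. In these 3 genes the WT/WT fronts past 10 kb were all above the slow/slow fronts, and WT/WT replicate 2 was at 2.5 kb. With the short boundaries left out, the differences were -16.5 ± 4.6 kb for Cnot1, -18.1 ± 5.0 kb for Rbfox2 and -7.35 ± 4.2 kb for Smg1.

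Drosha and Dicer1, which cut microRNA precursors in the nucleus and the cytoplasm, had distant fronts in most replicates. Drosha was at 47.2, 2.5 and 41.9 kb in WT/WT cells, at 26.5, 2.5 and 2.5 kb in WT/slow cells and at 29.3, 40 and 31.9 kb in slow/slow cells. Dicer1 was at 22.1, 50.1 and 49 kb in WT/WT cells, at 26.6, 24.6 and 26.9 kb in WT/slow cells and at 2.5, 33.6 and 25.3 kb in slow/slow cells. Dicer1 was the only RNA processing gene with 3 WT/WT boundaries of at least 10 kb at 15 min, and its WT/slow fronts lay close together. Srpk2, a kinase of SR proteins, was at 39.9, 7.2 and 48.9 kb in WT/WT cells, at 2.5, 41.9 and 30.9 kb in WT/slow cells and at 29.6, 49.6 and 43.5 kb in slow/slow cells, so its values overlapped. With the short boundaries left out the differences were -10.8 ± 5.0 kb for Drosha, -10.9 ± 8.2 kb for Dicer1 and -3.50 ± 7.1 kb for Srpk2.

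Between WT/slow and WT/WT cells at 15 min, 8 genes could be tested and 1 was called, Elavl1, with a difference of 26.6 ± 3.7 kb (adjusted p = 0.0457 by limma; all genes: 2.6% called). With the replicate number as a block, Elavl1 was no longer called and 0 of 8 genes were, and 0 genes were called when any 1 replicate of these genotypes was left out. Between slow/slow and WT/slow cells, 2 of 17 genes were called, Hnrnpr with 25.8 ± 2.8 kb (adjusted p = 0.0277 by limma) and Rbm26 with 28.1 ± 3.2 kb (adjusted p = 0.0454 by limma), against 0.371% of all genes. With the replicate block 0 of 17 were called, and 0 were called when any 1 replicate of the 2 genotypes was left out. Rbm26, an RNA-binding protein with a zinc finger, was at 6.9, 2.5 and 2.5 kb in WT/WT cells, at 2.9, 3.0 and 2.6 kb in WT/slow cells and at 26.5, 34.5 and 31.9 kb in slow/slow cells. Its boundaries at 5 min had been 24.5, 22.7 and 13.2 kb, 2.9, 22.2 and 19.3 kb, and 19.5, 13.1 and 12.8 kb in these genotypes.

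The advance of the wave from 5 to 15 min was tested within each genotype. In slow/slow cells 40 RNA processing genes could be tested, 38 had a longer boundary at 15 min and 18 were called, all 18 forward, with a median advance of 18.02 kb (all genes: 31.1% called, median 12.9 kb). The called genes were Celf1, Cstf3, Ddx46, Dhx15, Drosha, Elavl1, Fubp3, Hnrnpr, Khdrbs3, Msi2, Ptbp3, Rbfox2, Rbm26, Scaf11, Smg1, Srpk2, Upf2 and Xrn2. Their advances ran from 12.8 ± 3.3 kb in Drosha to 29.9 ± 8.5 kb in Srpk2. The count fell to 3 without slow/slow replicate 2 and to 6 without slow/slow replicate 3, and it was 17 without replicate 1.

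In WT/WT cells 17 genes could be tested and 6 were called (all genes: 15.1%). The wave moved forward by 35.6 ± 8.0 kb in Cnot1, 27.4 ± 3.5 kb in Drosha, 25.1 ± 7.2 kb in Rbfox2, 22.7 ± 6.0 kb in Dicer1 and 22.2 ± 4.1 kb in Smg1. In Celf1 the called difference was -19.4 ± 2.9 kb, since its boundary was near 22 kb at 5 min and under 3 kb at 15 min. The median over the 17 genes was -4.88 kb, and it was 14.9 kb without WT/WT replicate 2. Calls numbered 2, 3 and 0 without WT/WT replicates 1, 2 and 3. In WT/slow cells 17 genes could be tested, the median advance was 11.9 kb and 1 was called (all genes: 18.4%), Prpf6 with 29.7 ± 7.3 kb. There were 2 calls without WT/slow replicate 1 or 2, and 1 without replicate 3.

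At 5 min the genes with called advances were at the following positions. Drosha was at 14.6, 21.2 and 15.8 kb in WT/WT cells, at 22.1, 19.9 and 21.5 kb in WT/slow cells and at 21.4, 19.7 and 21.6 kb in slow/slow cells. Dicer1 was at 16.8, 20.5 and 15.8 kb, at 13.4, 18.9 and 13.4 kb and at 2.5, 12.4 and 6.8 kb. Drosha was thus level or ahead in slow/slow cells, whereas the measured Dicer1 fronts were behind the WT/WT ones. Cnot1 was at 6.8, 20.2 and 12.6 kb in WT/WT cells, at 2.5, 16.6 and 5.8 kb in WT/slow cells and at 33.1, 13.8 and 11.5 kb in slow/slow cells. Rbfox2 was at 12.6, 21.3 and 43 kb in WT/WT cells, at 8.4, 20.3 and 10.1 kb in WT/slow cells and at 14.2, 12.8 and 12.1 kb in slow/slow cells. Single replicates stood far out in both genes, Cnot1 in slow/slow replicate 1 and Rbfox2 in WT/WT replicate 3. Smg1 was at 2.5, 21.8 and 17.3 kb, at 2.5, 22.2 and 11.8 kb and at 12.7, 14.2 and 11.3 kb in the 3 genotypes. Srpk2 was at 5.0, 15.4 and 10.8 kb, at 2.5, 13.4 and 11.5 kb and at 11.5, 11.1 and 10.3 kb. In both the slow/slow replicates lay close together.

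The difference in advance between genotypes was tested as an interaction. Of 15 genes with values at both times in slow/slow and WT/WT cells, 2 were called, Celf1 with 42.6 ± 4.5 kb (adjusted p = 0.00329 by limma) and Elavl1 with 32.4 ± 6.4 kb (adjusted p = 0.032 by limma), against 1.52% of all genes. Both had a larger advance in slow/slow cells, and both rest on WT/WT boundaries of 2.6 to 4.2 kb at 15 min. There was 1 call without WT/WT replicate 1 or without any 1 of the slow/slow replicates, and 0 without WT/WT replicate 2 or 3. With boundaries under 10 kb at 15 min left out, only the 6 genes with distant fronts in both genotypes could be tested. The difference was then negative in all 6, with a median of -4.79 kb and 0 called, with 2 at an unadjusted p under 0.05. With the short boundaries kept, the difference was 8.33 ± 12.1 kb in Srpk2 and negative in the others. For WT/slow minus WT/WT cells, 8 genes could be tested and 0 were called (all genes: 0.815%), with 2 at an unadjusted p under 0.05.

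**Figure D4:**
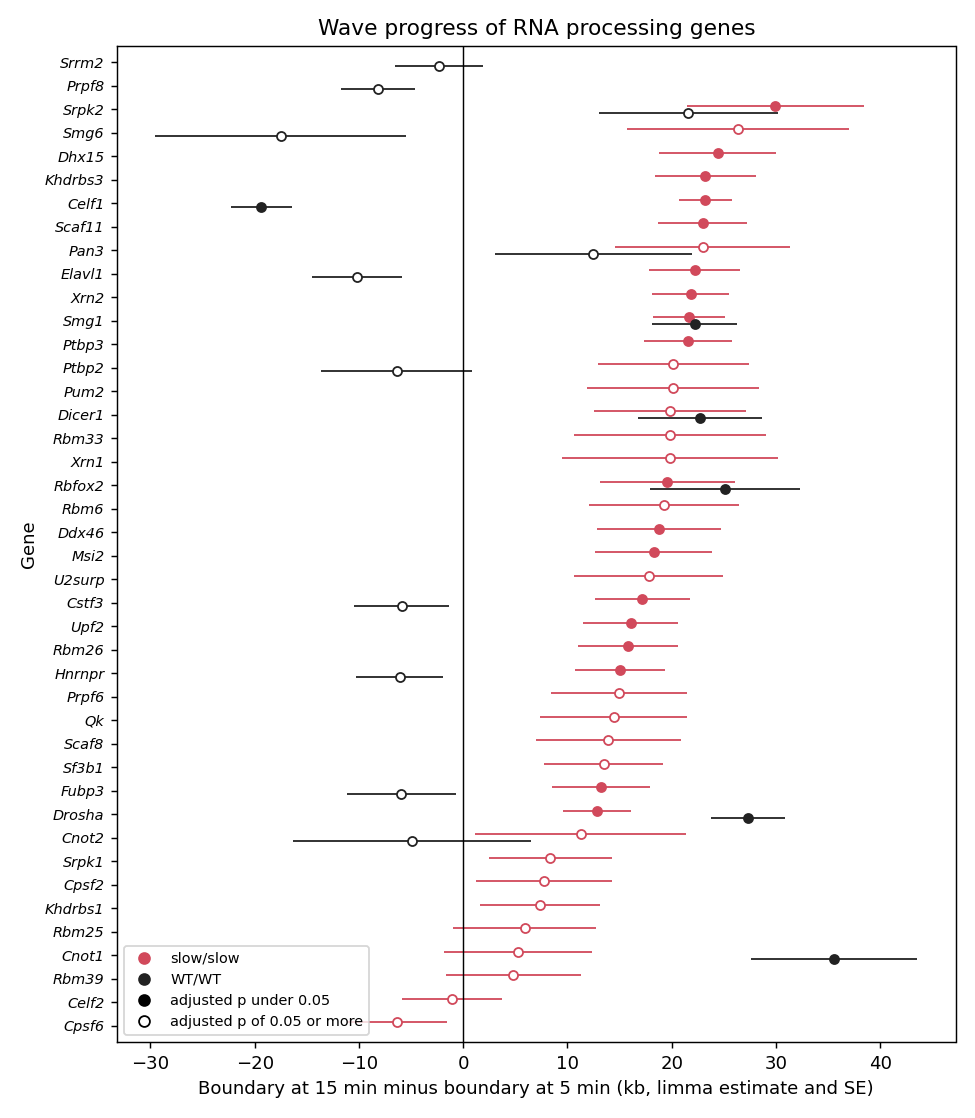
Boundary at 15 min minus boundary at 5 min (kb, limma estimate with SE) for each RNA processing gene that could be tested in slow/slow cells (40 genes) or in WT/WT cells (17 genes), with filled points for an adjusted p under 0.05. All 18 filled slow/slow points lie above 0, from 12.8 to 29.9 kb, and 1 of the 6 filled WT/WT points, Celf1, lies below 0.

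The alternative splicing regulators and other sequence-specific RNA-binding proteins were the largest group, with 20 genes. At 15 min 12 of them had at least 2 boundaries of at least 10 kb in slow/slow cells, 5 in WT/slow cells and 1 in WT/WT cells. Such boundaries made up 56.7%, 30.6% and 11.7% of those in the group, against 47.1%, 36.3% and 28.4% over all genes. Differences between roles and all genes were not tested. Ptbp3, a relative of Ptbp2, was at 7.7, 21.8 and 10.7 kb in WT/WT cells at 5 min and at 2.5 kb in all 3 at 15 min, whereas slow/slow cells went from 13.6, 12.7 and 7.5 kb to 33.5, 34.6 and 30.4 kb. WT/slow cells went from 9.0, 18.4 and 8.1 kb to 2.5, 2.5 and 48.9 kb. Only the slow/slow genotype thus had a front in every replicate of Ptbp3 at 15 min. Ptbp2 at 15 min was at 2.5, 3.8 and 29.7 kb in WT/WT cells, at 2.5 kb in all WT/slow replicates and at 2.5, 35.7 and 27.7 kb in slow/slow cells.

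Fubp3, a KH-domain protein of the far-upstream-element-binding family, had the most measured boundaries in this group, 17 of 18 at 5 and 15 min. It was at 3.1, 12.4 and 13.8 kb in WT/WT cells at 5 min and at 4.6, 3.1 and 2.5 kb at 15 min. WT/slow cells had 11.1 kb in all 3 replicates at 5 min and 26.5, 11 and 31.6 kb at 15 min, and slow/slow cells had 11.1, 13.2 and 12.4 kb and then 21.4, 32.4 and 22.6 kb. The value 11.1 kb recurred in 6 samples of Fubp3 at 5 and 30 min, so a boundary can return to the same place at different times. Of the other genes, Prpf8 repeated 3.0 kb in 5 samples at all 3 times, Hnrnpr 4.7 kb in 4 samples at 15 and 30 min, Pum2 2.8 kb in 3 samples at all 3 times and Dicer1 13.4 kb in 3 samples at 5 and 30 min. Whether such values are wave-fronts was not tested.

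Khdrbs3, a signal-transducing relative of Sam68 that regulates neuronal exons, was at 8.5, 12.4 and 2.5 kb in WT/WT cells at 5 min, at 13.9, 16.1 and 30.4 kb in WT/slow cells and at 8.6, 6.5 and 3.7 kb in slow/slow cells. Its boundaries at 15 min were 49.5, 2.5 and 2.5 kb, at 31.6, 32.5 and 33.4 kb and at 33.8, 25.2 and 2.5 kb. The WT/slow replicates of Khdrbs3 lay close together at 15 min, and those of the other genotypes did not. Msi2, a Musashi protein that controls translation, was at 11.9, 14.9 and 2.9 kb at 5 min and at 42.1, 2.5 and 2.5 kb at 15 min in WT/WT cells. Its values were 2.5, 12.9 and 7.6 kb and then 2.5, 2.5 and 45.5 kb in WT/slow cells, and 9.2, 10.3 and 11.4 kb and then 24.3, 41.8 and 19.6 kb in slow/slow cells. Each genotype thus had 1 replicate past 40 kb.

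The longest and the shortest gene had few boundaries above 2.5 kb at 15 min. Celf2, the longest gene and a relative of Celf1, was at 2.5, 15.4 and 2.5 kb in WT/WT cells at 5 min, at 2.5 kb in all WT/slow replicates and at 11.1, 2.5 and 7.6 kb in slow/slow cells. At 15 min it was at 11.5, 2.5 and 2.5 kb, at 2.5, 10.5 and 2.5 kb and at 11.3, 2.5 and 5.3 kb, so from the start of the longest transcript no boundary passed 15.4 kb at either time. From 2 annotated starts 523.4 and 524.03 kb downstream, given after their values were seen, 8 and 7 of 9 boundaries at 5 min were above 2.5 kb, each with a median of 11.9 kb, and 6 of 9 at 15 min, with medians of 39.1 and 42.9 kb. Tra2a, the shortest and an activator of exon inclusion, was at 2.5, 16.8 and 9.7 kb in WT/WT cells, at 4.3, 7.6 and 11.6 kb in WT/slow cells and at 6.7, 9.2 and 6.3 kb in slow/slow cells at 5 min. At 15 min all 9 Tra2a boundaries were at 2.5 kb. Its longest transcript, which covers 20.1 kb, is annotated as a retained intron.

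Mbnl1 and Mbnl2, muscleblind proteins that control developmental exon switches, had no measured front at 15 min in WT/WT or slow/slow cells from the start of their longest transcripts. Mbnl2 had 9 of 9 measured boundaries at 5 min, from 6.8 to 49.7 kb. Mbnl1 was at 2.5 kb in all 9 samples at 5 min. Another annotated start of Mbnl1 lies 28.1 kb downstream (transcript at chr3:60501179-60629750, GRCm38), and its values are given after they were seen. From it, the boundaries at 5 min were 35.3, 20.7 and 55.2 kb in WT/WT cells, 18.2, 18.5 and 18.5 kb in WT/slow cells and 12.6, 11.8 and 20.9 kb in slow/slow cells. At 15 min they were 41.9, 50.1 and 31.6 kb, 28.2, 41.1 and 36.8 kb, and 46.2, 51.6 and 44.8 kb. All 18 boundaries were thus measured from the internal start, and the slow/slow values overlapped those of WT/WT cells at both times. Of 21 RNA processing genes with another start at least 1 kb away, 4 had one with at least 3 more measured boundaries at 15 min, Celf2, Mbnl1, Pan3 and Prpf6.

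The other members of this group are given by their ranges. Qk, which binds introns and promotes circular RNAs, was at 5.9 to 22 kb in WT/WT cells and 12.2 to 30.7 kb in slow/slow cells at 5 min, and at 30 to 36.4 kb in slow/slow cells at 15 min, where WT/WT cells had 3.3, 2.5 and 2.5 kb. Rbm6 had slow/slow fronts of 28.0 to 32.1 kb at 15 min and WT/slow fronts of 19.2 to 53.5 kb. Khdrbs1 (Sam68), Rbm25 and Rbm39, all of which act on alternative exons, had at most 2 slow/slow fronts past 10 kb at 15 min, between 23.6 and 29.7 kb, and Rbm25 had WT/slow fronts at 35.6 and 29.4 kb. Hnrnpll, which regulates exons in lymphocytes, and Rbm5, both under 35 kb long, had 9 of 9 measured boundaries at 5 min and 0 of 9 at 15 min.

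Among the 9 core spliceosome genes, 5 had at least 2 boundaries of at least 10 kb in slow/slow cells at 15 min, 2 in WT/slow cells and 0 in WT/WT cells. Their shares of such boundaries were 37%, 22.2% and 0%, against 47.1%, 36.3% and 28.4% over all genes. All 9 are under 60 kb long, and among all genes under 60 kb the shares were 33.8%, 23.2% and 15.8%. Prpf6, a bridging protein of the tri-snRNP, was at 4.4, 21.6 and 8.0 kb in WT/WT cells, at 5.6, 16.3 and 14.3 kb in WT/slow cells and at 6.7, 11.1 and 7.0 kb in slow/slow cells at 5 min. At 15 min it was at 2.5, 2.5 and 8.3 kb, at 2.5, 39.1 and 44.5 kb and at 6.9, 33.8 and 28.9 kb. The 2 WT/slow fronts of Prpf6 were past both slow/slow fronts, and in WT/WT cells none was found past 10 kb.

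Ddx46 and Dhx15, helicases that act in the assembly and disassembly of the spliceosome, had distant fronts at 15 min in slow/slow replicates 2 and 3. Ddx46 went from 6.0, 11.6 and 6.3 kb to 2.5, 26.1 and 27.4 kb, and Dhx15 from 5.8, 11.6 and 9.3 kb to 2.5, 33.3 and 33.3 kb. In WT/WT cells Ddx46 was at 2.5, 20.9 and 2.6 kb at 5 min and Dhx15 at 2.5, 22.5 and 13.6 kb, and all 6 values at 15 min were 2.5 kb. In WT/slow cells they were at 2.5, 20 and 9.2 kb and at 3.0, 16.3 and 21.7 kb at 5 min, and 1 front was found at 15 min, at 23.8 kb in Ddx46. Snrnp200 at 15 min was at 9.1, 2.5 and 2.5 kb, at 5.5, 2.5 and 2.5 kb and at 2.5 kb in all slow/slow replicates. Sf3b1, the branch-site subunit of the U2 snRNP, had slow/slow values of 9.4, 33 and 33.2 kb at 15 min and 2.5 kb in the other 6 samples. U2surp, a protein bound to the U2 snRNP, had fronts of 25 and 34.1 kb in slow/slow cells and of 21.2 and 25.1 kb in WT/slow cells. Prpf8, the central U5 protein, Prpf39, a U1-associated protein, and Prpf4b, all under 30 kb long, had no slow/slow boundary past 3.3 kb at 15 min.

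Of the 5 SR-related proteins and SR protein kinases, 3 had at least 2 boundaries of at least 10 kb in slow/slow cells at 15 min, and 1 in each of the other genotypes, Srpk2. The shares of such boundaries were 53.3% in slow/slow, 33.3% in WT/slow and 20% in WT/WT cells, against 47.1%, 36.3% and 28.4% over all genes. Scaf11, an SR-related splicing factor, was at 2.5, 21.5 and 14.4 kb in WT/WT cells, at 10.8, 22.5 and 17.5 kb in WT/slow cells and at 9.7, 12.5 and 10.3 kb in slow/slow cells at 5 min. It moved by 15 min to 2.5, 2.5 and 4.3 kb, to 2.5 kb in all WT/slow replicates and to 2.5, 35.7 and 31.9 kb. Distant fronts of Scaf11 were thus found in slow/slow cells alone. Srpk1, the other kinase, had slow/slow fronts of 26.2 and 29 kb at 15 min and 1 WT/slow front at 22.1 kb. Srrm1 and Srrm2, large scaffold proteins of nuclear speckles, are 32.8 and 21.6 kb long. Srrm1 had 1 boundary of at least 10 kb at 15 min, in a WT/slow replicate, and Srrm2 had 3, at 12 to 13.3 kb, 1 in each genotype.

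The 5 genes for 3′ end formation and termination had no WT/WT boundary of at least 10 kb at 15 min, 3 such boundaries in WT/slow cells and 10 in slow/slow cells. As shares these were 0%, 20% and 73.3%, against 28.4%, 36.3% and 47.1% over all genes. Xrn2, the exonuclease that acts in termination, was at 2.5, 20.4 and 10.5 kb in WT/WT cells, at 2.5, 20.6 and 17.9 kb in WT/slow cells and at 11.6, 13.3 and 8.9 kb in slow/slow cells at 5 min. At 15 min it was at 2.5 kb in all WT/WT replicates, at 2.5, 2.5 and 43.4 kb in WT/slow cells and at 28.8, 36.9 and 33.6 kb in slow/slow cells. The 3 slow/slow fronts of Xrn2 moved forward together. Scaf8, which binds the RNAPII tail and prevents early termination, had slow/slow values of 6.2, 34.3 and 33.6 kb. Cpsf2 and Cpsf6, subunits of the cleavage machinery, are 30 and 32.3 kb long and had 1 slow/slow front each past 10 kb, at 27.4 and 10.9 kb.

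Of 9 genes for mRNA decay and translational control, 7 had at least 2 boundaries of at least 10 kb in slow/slow cells at 15 min, and 2 in each of WT/slow and WT/WT cells. The shares of such boundaries were 66.7% in slow/slow, 37.6% in WT/slow and 22.2% in WT/WT cells, against 47.1%, 36.3% and 28.4% over all genes. Smg6, the endonuclease of nonsense-mediated decay, was at 4.5, 20.1 and 37.2 kb in WT/WT cells, at 5.7, 19.7 and 6.3 kb in WT/slow cells and at 5.6, 9.2 and 9.3 kb in slow/slow cells at 5 min. At 15 min it was at 2.8, 2.5 and 3.4 kb, at 5.6, 2.6 and 50.8 kb and at 29.4, 30.3 and 43.5 kb. Upf2, which joins Upf1 to the exon junction complex, was at 15, 23.5 and 16.3 kb in WT/WT cells, at 11.9, 22.2 and 18.5 kb in WT/slow cells and at 18.4, 12.8 and 12.8 kb in slow/slow cells at 5 min. In both genes the WT/WT wave was found at 5 min and not past 10 kb at 15 min. Upf2 at 15 min was at 2.5, 35.3 and 26.2 kb in slow/slow cells and at 2.5 kb in all other samples with a boundary.

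Pan3 at 15 min was at 51.8, 2.5 and 6.6 kb in WT/WT cells, at 35.6, 34 and 29.6 kb in slow/slow cells, and in WT/slow cells at 2.5 and 29.5 kb with no boundary in replicate 3. Pan3 joined 3 clustered slow/slow fronts to 1 WT/WT front well past them. Cnot2 and Cnot6, further subunits of CCR4-NOT, differed from each other at 15 min, with slow/slow values of 9.1 to 34.6 kb in Cnot2 and a single value above 2.5 kb, 5.8 kb, in Cnot6. Xrn1, the cytoplasmic 5′ to 3′ exonuclease, had 8.7, 2.5 and 54.9 kb in slow/slow cells, and Pum2, a translational repressor, had 2.5, 34.2 and 31.1 kb. From the starts of the longest transcripts, Xrn1 was the only gene of the list with a slow/slow front past 50 kb at 15 min. Boundaries also depended on the transcript chosen at nearly the same start. The median at 15 min was 49.2 kb in the Xrn1 transcript used and 8.1 kb in one starting 0.01 kb away, with 3 boundaries other than 2.5 kb in each. In the same way, it was 6.9 and 25 kb in Rbm26, and the single Cnot6 boundary was at 5.8 and 30.4 kb. How often this occurred was not counted.

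The remaining genes were Dhx9, an RNA helicase, and the RNA-binding proteins Rbm26 and Rbm33. Rbm33 was at 6.1, 22.1 and 11.4 kb in WT/WT cells, at 14.2, 19.4 and 17.4 kb in WT/slow cells and at 13.8, 12 and 11.9 kb in slow/slow cells at 5 min. At 15 min it was at 21.9, 2.5 and 2.5 kb, at 31.7, 2.9 and 55.1 kb and at 32.2, 34.8 and 30.2 kb, so the 3 slow/slow fronts again lay close together. Dhx9, which covers 31.9 kb, had 9 of 9 measured boundaries at 5 min, from 3.4 to 20.4 kb, and 1 at 15 min, at 2.9 kb.

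At 30 min little of the wave could be followed. Boundaries at 2.5 kb made up 78% ± 10.4 of the RNA processing genes in WT/WT cells, 86.8% ± 13.2 in WT/slow cells and 83% ± 5.7 in slow/slow cells (SD, n = 3), and the boundaries of at least 10 kb numbered 9, 7 and 7 of 159. Over all genes the shares at 2.5 kb were 65.4%, 70.3% and 68.6%. Cstf3 was at 49, 2.7 and 33.8 kb in WT/WT cells at this time, with 30.1 and 10.4 kb in WT/slow replicates 1 and 3 and 2.5 kb in all slow/slow replicates. No test was made at 30 min.

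A wider list of 310 RNA processing genes that were not among the 54 held 171 genes with a transcript of at least 20 kb. At 5 min their slow/slow boundaries differed from the WT/WT ones by a median of -2.46 kb over 152 genes, with 126 shorter and 0 called. At 15 min 37 could be tested and 2 were called, both longer in slow/slow cells. For Rc3h2, a decay factor, the difference was 30.9 ± 4.3 kb and the WT/WT mean was 4.7 kb, so a short WT/WT boundary was set against a distant slow/slow front there as in Celf1 and Elavl1. From 5 to 15 min, 34 of 82 were called in slow/slow cells, 33 of them forward, 12 of 66 in WT/slow cells and 9 of 46 in WT/WT cells, all forward. The share of boundaries of at least 10 kb at 15 min was 43.6% ± 9.1 in slow/slow cells and 16.9% ± 6.4 in WT/WT cells, beside 57.7% ± 20.5 and 13.8% ± 12.3 for the 53 genes.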

How the data were processed

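Purified 4sU-labelled RNA of mouse ESCs was sequenced by the authors and aligned to mm10 (GRCm38) with Bowtie2 (version 2.2.9 in the submitters' processing notes), keeping unique reads outside rRNA. The deposited values are another kind of unit than counts: for each of 122968 transcripts, the distance in bases from the start site to the end of the transcription wave, with the average of the 0 min samples as reference as the tables are named. The 18 samples without such a table were not analysed here. The software version and annotation are not given in the sources used here. Read depth is unknown, so precision rests on the spread of 3 replicates. Results and methods of the study differ on the length of the DRB block, and the labels' 4 h is given.

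Groups came from the labels. Transcripts were named through GENCODE M21, whose start and end matched for 46 of the 53 transcripts used. Boundaries in kb were fitted with limma 3.58.1 (R 4.3.3), separately at 5 and at 15 min with all 9 samples of the time, and over 18 samples for progress and the interaction, with boundaries at 2.5 kb treated as no value. limma pools the spread over genes, so a group with 2 values was tested. Scripts were tested on simulated data. No 2 tables were identical. Other steps used Python 3.11.15, NumPy 2.4.6, pandas 2.3.3 and Matplotlib 3.10.9.

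Replicate numbers were checked for pairing by the correlation of same-numbered deviations from group means over genes. It lay above 0.1 in all 3 pairs for WT/slow with WT/WT cells at 5 min (0.123 to 0.279) and 15 min (0.106 to 0.162). The same held for slow/slow with WT/slow cells at 15 min (0.102 to 0.136), but not at 5 min (0.151, 0.149 and 0.0516). For slow/slow with WT/WT cells it was 0.101, 0.108 and 0.0433 at 5 min and 0.074, 0.0967 and 0.0141 at 15 min. The same-numbered sample correlated best in every pair except replicate 3 of slow/slow with WT/WT cells at 15 min.

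Genes were named by a fixed rule: values in every sample for genes called in any comparison, genes whose slow/slow and WT/WT values do not overlap, the gene with the most measured boundaries in each role, and the longest and the shortest. A further part of the rule, on spread at 15 min, found 0 genes. Some genes outside the rule are also given with values, such as Rbm6 and Mbnl1. Of the genes read for donor sites, Rbm5, Prpf4b and Hnrnpll do not fall under the rule. The list of genes, the roles and the wider list were chosen with earlier results of these data known. Alternatives were the boundaries at 2.5 kb kept, log2 values, 3 values per group, transcripts of at least 60 kb, protein-coding transcripts, a replicate block, and each replicate left out. The wider list holds another gene called at 15 min that is not reported here. Counts and shares without WT/WT replicate 2 were added after the values were seen.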

Additional observations from a re-analysis of the deposited data

Results flagged for a closer look

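The advance of the wave from 5 to 15 min differed between slow/slow and WT/WT cells by the interaction test in 2 RNA processing genes. The difference, slow/slow minus WT/WT, was 42.6 kb in Celf1 (adjusted p = 0.00329 by limma) and 32.4 kb in Elavl1 (adjusted p = 0.032 by limma). In Celf1 the slow/slow wave advanced by 23.2 kb and the WT/WT boundary changed by -19.4 kb. In Elavl1 these values were 22.2 and -10.2 kb. The WT/WT boundaries at 15 min were 2.5 to 2.7 kb in Celf1 and 2.5 to 4.2 kb in Elavl1, and whether they are the front of the wave was not tested. Celf1 transcripts that start within 0.15 kb of the one used had fewer boundaries other than 2.5 kb at 15 min, and the interaction was not tested in them.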

How the results depend on the processing

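The 5 min difference of slow/slow from WT/WT and from WT/slow cells stayed negative under every alternative but one, the omission of WT/WT replicate 2, and 0 genes were called under any. Its median against WT/WT cells ran from -4.87 to 2.07 kb when a replicate was left out, and that of WT/slow against WT/WT cells from -1.35 to 3.82 kb, and the latter was -0.73 kb in transcripts of at least 60 kb. At 15 min, calls of slow/slow against WT/WT numbered 0 to 2 with a replicate left out (medians 0.18 to 21.6 kb), 1 with 3 values per group, and 0 in transcripts of at least 60 kb (median 6.38 kb), with the replicate block, where all genes went from 133 calls to 1, and with boundaries under 10 kb left out (median -10.9 kb). For WT/slow against WT/WT there were 0 calls with 2.5 kb kept, 3 values (median -6.23 kb), 60 kb, the block, short boundaries left out (median -14.4 kb) or any replicate left out (medians 1.00 to 14.5 kb). For slow/slow against WT/slow there was 1 call with 3 values or protein-coding transcripts, and 0 in transcripts of at least 60 kb, with the block, without short boundaries and without any replicate (medians 0.72 to 13.9 kb). WT/WT progress had 3 calls on the log2 scale and 1 with 3 values (median 7.85 kb), medians of 17.1 kb at 60 kb and 26.2 kb without short boundaries, and 0 to 3 calls with a replicate left out (medians -6.10 to 14.9 kb). WT/slow progress had 5 calls with 2.5 kb kept (median -2.87 kb), 0 on the log2 scale, with 3 values or at 60 kb, 7 without short boundaries, and 1 to 2 with a replicate left out (medians 6.05 to 10.2 kb). Slow/slow progress had 6 calls with 2.5 kb kept (median 10.4 kb), 10 on the log2 scale, 32 without short boundaries and 3 to 17 with a replicate left out (medians 12.3 to 20.1 kb). The slow/slow interaction had 0 calls with 3 values, 1 at 60 kb, 0 without short boundaries (median -4.79 kb) and 0 to 1 with a replicate left out (medians 4.13 to 21.4 kb). The WT/slow interaction had a median of -11.9 kb with 3 values or without short boundaries, and -7.74 to 10.98 kb with a replicate left out. In transcripts of at least 60 kb, median fronts were 24.0 kb in WT/WT cells at 15 min and 5.35 kb in WT/slow cells at 30 min, and the shares at 2.5 kb were 43.3% in WT/slow cells at 15 min and 6.17% and 16.05% in slow/slow cells at 5 and 15 min. With 2.5 kb kept, medians were 2.5 kb for every genotype at 30 min and for WT/slow cells at 15 min, and 21.03 kb for slow/slow cells at 15 min. Leaving out boundaries under 10 kb at 15 min keeps short ones at 5 min, so it favours a forward advance by its construction. Without WT/WT replicate 2, genes whose slow/slow values lay apart from WT/WT numbered 5 in place of 0 higher at 5 min, and 4 in place of 0 lower and 2 in place of 1 higher at 15 min. The replicate block moved the WT/WT progress calls from 6 to 5 and changed no other count than those given. The cause of these changes was not tested. Single named genes that could be fitted kept both direction and call 174 times over the alternatives, kept the direction but lost the call 104 times and reversed 0 times. Celf1, Cstf3, Elavl1 and Hnrnpr could not be fitted against WT/WT cells at 15 min without the short boundaries. The 0 reversals therefore do not cover these genes in that setting. Medians and shares over the genes stayed within the replicate spread, or kept their sign on the log2 scale, 145 times. They moved beyond that spread 19 times and reversed 18 times. Counts of genes stayed equal or close 76 times and moved further 61 times.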
